A study of Mus musculus with 29 samples.

Results

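Complement is the set of plasma and cell-surface proteins that mark immune complexes, microbes and dying cells for removal. The 9 complement genes described here are C1qa, C1qb, C1qc, C2, C3, C4b, Cfb, Cfp and C3ar1, taken by name from the 13982 genes that the deposited table lists. All 9 had a row. They were measured in 14 tissue libraries from (NZBxNZW)F1 mice, a cross that develops antibodies against double-stranded DNA, lupus nephritis and, in the kidney, tertiary lymphoid structures (TLS), which are organised aggregates of lymphocytes outside lymphoid organs.

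The libraries fell into 5 groups, and the labels name no treatment. Proteinuric mice gave 4 kidney libraries (mice H6, H20, H115 and H117), 3 TLS libraries (mice H6, H20 and H115) and 3 lymph node libraries (mice H6, H20 and H117). These mice were 39 weeks old (mouse H6), 36 weeks (mouse H20), 25 weeks (mouse H115) and 32 weeks (mouse H117). A further 3 lymph nodes came from mice that had been antibody-positive for under 5 weeks (mice D10, D11 and L25, aged 28, 29 and 18 weeks), and 1 came from a young mouse of 4 weeks (mouse C45). The TLS were cut by hand from the kidney under a loupe, and the kidney tissue came from the same organ, so that the kidney libraries are not TLS-free by design. The kit that purified RNA from the antibody-positive nodes differed from that used for all other tissue, so disease stage and kit cannot be told apart there, nor can stage and age. Another 15 whole-kidney samples of the series were not analysed here.

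The classical pathway starts when C1q, a hexameric protein built from A, B and C chains, binds antibody and activates its associated proteases, which cut C4 and then C2. The lectin pathway joins at C4, and the alternative pathway amplifies through factor B and is stabilised by properdin (Cfp). All of them converge on C3, whose fragments coat the target or signal through receptors such as C3ar1. C1q is made mainly by macrophages and some dendritic cells, whereas most circulating C3, C4 and factor B comes from the liver and a local part is made by epithelial, stromal and myeloid cells. Inherited lack of C1q or C4 is a strong risk for lupus, and C1q and C3 deposits in the glomerulus are typical of lupus nephritis.

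Values are normalised read counts: the reads of a gene plus 1, divided by a size factor of the library. Whole reads were recovered from them, and the libraries held 343825 to 443379 reads each, so 1 to 3 reads are near the limit of what was measurable. A value of 3 reads lay between 2.36 and 5.32, depending on the library. Ribosomal RNA genes held 55.6% of all reads in the kidney of mouse H117, 31.8% in the lymph node of mouse H6 and 21.3% in the TLS of mouse H115, and at most 5.33% in the other 11 libraries. These 3 libraries stand apart, and the tissue comparisons are also given without them. Tissue labels were checked on marker genes. The summed level of 6 proximal tubule markers was 5522 to 15880 normalised reads in kidney and 894 to 6390 in TLS, but only 5.37 to 11.6 in the lymph nodes. The 3 urothelial markers (Upk1b, Upk3a and Krt5) summed to 73.1 to 496 in TLS, to at most 8.84 in kidney and to 0 in every lymph node.

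The 3 C1q genes lie next to each other on the minus strand of chromosome 4 (GRCm38, GENCODE M21): C1qb at 136880129 to 136886187, C1qc at 136889804 to 136893065 and C1qa at 136895917 to 136898803. C2 (34862604 to 34898265), Cfb (34856374 to 34862518) and C4b (34728380 to 34743882) lie in the major histocompatibility region of chromosome 17. C3 (57203970 to 57228136) lies farther along that chromosome, C3ar1 on chromosome 6 (122847138 to 122856161) and Cfp on chromosome X (20925454 to 20931555). All 9 are on the minus strand. A further annotated gene, Gm20547, overlaps both C2 and Cfb and had at most 9 reads in any library, and C4a, a close paralog of C4b, had at most 3. How the authors' counting split reads between these overlapping or similar genes was not given in the sources used here, so the values of C2, Cfb and C4b carry that uncertainty.

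RefSeq promoter sequences (GRCm38.p6, from 250 bases before to 50 bases after the annotated start, 5′ to 3′ on the gene's strand) were matched for 5 of the 9 genes. No sequence was matched for C1qa, C2, C4b and Cfb. Of the 5 matched, the 4 shown belong to the genes whose values differed most between tissues, as a view of the DNA at their starts. Capitals mark matches on either strand to 4 short motifs, namely the PU.1 core GAGGAA, the interferon response element core GAAANNGAA, the C/EBP site TTGCNNAA and the TATA box TATAAA.
C1qb: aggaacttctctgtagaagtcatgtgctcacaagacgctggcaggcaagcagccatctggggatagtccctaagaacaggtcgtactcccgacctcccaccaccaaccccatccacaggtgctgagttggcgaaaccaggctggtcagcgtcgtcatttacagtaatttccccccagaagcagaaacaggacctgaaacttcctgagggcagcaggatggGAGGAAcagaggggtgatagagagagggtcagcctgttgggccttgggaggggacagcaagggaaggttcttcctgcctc
C1qc: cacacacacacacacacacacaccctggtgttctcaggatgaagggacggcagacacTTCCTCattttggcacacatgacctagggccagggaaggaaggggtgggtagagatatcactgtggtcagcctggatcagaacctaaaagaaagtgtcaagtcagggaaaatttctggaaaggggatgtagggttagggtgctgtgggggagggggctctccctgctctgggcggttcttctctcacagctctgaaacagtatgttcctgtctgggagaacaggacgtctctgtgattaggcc
C3: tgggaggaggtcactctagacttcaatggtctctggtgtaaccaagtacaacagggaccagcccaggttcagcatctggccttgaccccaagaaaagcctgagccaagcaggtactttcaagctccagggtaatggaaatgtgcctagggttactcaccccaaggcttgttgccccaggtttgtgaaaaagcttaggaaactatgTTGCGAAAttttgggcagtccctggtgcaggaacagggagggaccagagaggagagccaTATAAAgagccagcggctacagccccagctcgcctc
Cfp: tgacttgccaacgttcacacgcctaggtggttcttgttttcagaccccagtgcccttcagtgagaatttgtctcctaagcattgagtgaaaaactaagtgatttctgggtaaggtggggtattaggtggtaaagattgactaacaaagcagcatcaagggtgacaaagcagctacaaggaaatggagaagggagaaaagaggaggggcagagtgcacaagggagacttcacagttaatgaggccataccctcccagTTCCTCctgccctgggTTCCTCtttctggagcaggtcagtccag
These windows are chr4:136886151-136886450 for C1qb, chr4:136892865-136893164 for C1qc, chr17:57228087-57228386 for C3 and chrX:20931506-20931805 for Cfp, all on the minus strand. The PU.1 core was matched once in C1qb, once in C1qc and at 2 places in Cfp, and 28.3% of 32851 mouse promoters of this length hold it. C3 had a C/EBP match, found in 10.8% of promoters, and a TATA box match, found in 13.6%. The interferon element, found in 8.56% of promoters, was matched in none of the 5. A match is only a run of letters in the window.

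C1qa and C1qb were the most abundant members per length in every group, and C1qc came next in TLS and proteinuric lymph node but not in the other groups. That place of C1qc rests on taking all annotated exons as the length. With the longest transcript instead, C1qc came next in every group, in kidney at 25.8 against 23.9 for Cfb. Reads per kilobase of exon averaged 251 ± 136 for C1qa and 227 ± 126 for C1qb in TLS (SD, n = 3), against 70.9 ± 61.8 and 72.5 ± 47.5 in kidney (SD, n = 4) and 359 ± 145 and 306 ± 27.7 in proteinuric lymph node (SD, n = 3). In TLS the C1qa and C1qb ranges overlapped each other and lay above that of C1qc, at 56.6 ± 25.1. After C1q in TLS came C3 (24.4 ± 8.16), Cfp (20.9 ± 12.1) and Cfb (16.4 ± 6.57), whose neighbouring ranges overlapped. C4b (2.99 ± 1.97) and C2 (2.83 ± 1.48) followed far below and overlapped each other, and C3ar1 was last at 0.338 ± 0.0743. In kidney the order differed in that Cfb (23.3 ± 11.5) came after the C1q pair and Cfp (1.38 ± 1.72) next to last, but every neighbouring pair of ranges overlapped there.

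**Figure D1:**
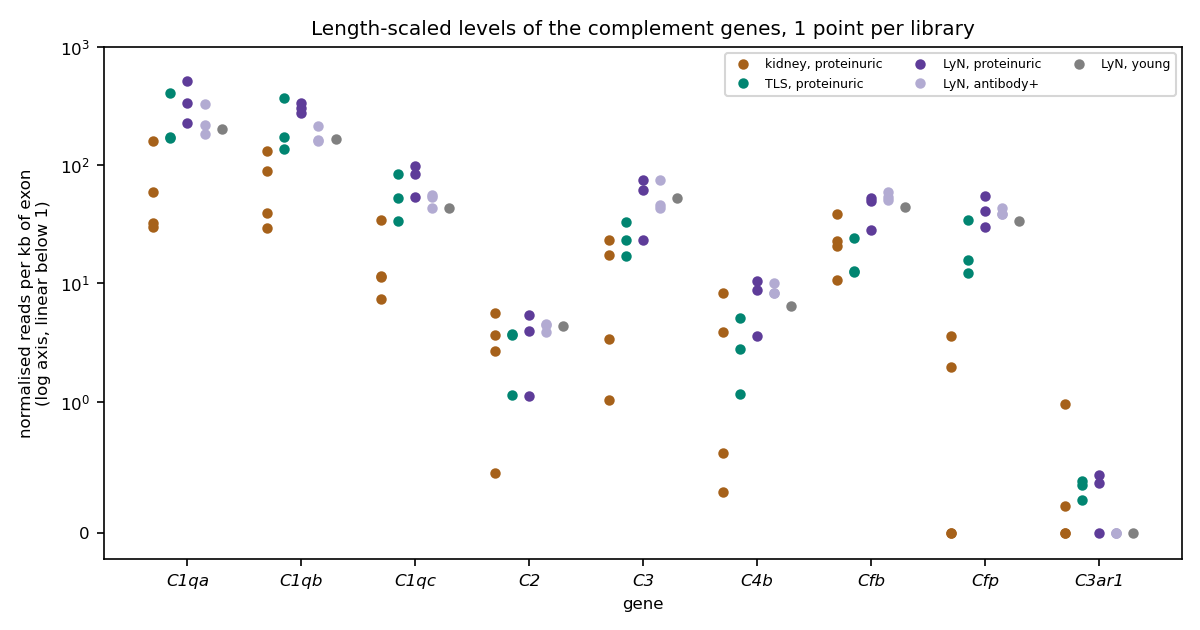
Normalised reads per kilobase of exon (vertical, log axis, linear below 1) for each complement gene (horizontal), with 1 point per library and colour for the group; antibody+ stands for antibody-positive. C1qa and C1qb are highest in each group, C2, C4b and C3ar1 lie at the bottom, joined in kidney by Cfp, and Cfp is the gene with the widest gap between kidney and the other tissues.

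C1qa, C1qb and C1qc, the A, B and C chains of C1q, were all higher in TLS than in the kidney tissue around them. C1qa measured 62.8 in the kidney of mouse H6, 169 in that of mouse H20, 32.5 in mouse H115 and 35.5 in mouse H117, and 426, 182 and 178 in the TLS of mice H6, H20 and H115. The groups did not overlap, but the kidney of mouse H20 came close to the lower TLS libraries. The log2 difference in (value + 1) was 2.00 (SE 0.58, 95% interval 0.75 to 3.25, adjusted p = 0.0347 in limma). C1qb measured 98.1, 144, 44.0 and 33.7 in the kidneys of mice H6, H20, H115 and H117, and 404, 149 and 191 in the TLS of mice H6, H20 and H115. It differed by 1.72 on that scale (SE 0.52, adjusted p = 0.0443, limma). C1qc measured 23.0, 66.6, 23.2 and 16.0 in the same kidneys and 162, 66.0 and 102 in the TLS. It differed by 1.87 (SE 0.49, adjusted p = 0.0223, limma), and its ranges touched, because the TLS of mouse H20 lay just below the kidney of that mouse.

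Within mice, the C1q difference came from mice H6 and H115. The TLS library exceeded the kidney of the same mouse by 2.74 log2 units for C1qa, 2.03 for C1qb and 2.76 for C1qc in mouse H6, and by 2.42, 2.09 and 2.10 in mouse H115. In mouse H20 the corresponding differences were 0.11, 0.04 and -0.01, so its TLS and kidney held about the same level. With the mouse as a replicate block, C1qb was no longer called (log2 difference 1.55, adjusted p = 0.0587, limma), while C1qa and C1qc were.

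Cfp, which encodes properdin, the protein that stabilises the alternative convertase, showed the widest gap between TLS and kidney among the 9 genes. The kidneys of mice H6, H20, H115 and H117 held 7, 4, 0 and 0 reads of it. The TLS of mice H6, H20 and H115 held 71, 27 and 25 reads, that is 61.1, 22.0 and 28.4 normalised reads, above every kidney. The log2 difference was 3.12 (SE 0.48, 95% interval 2.08 to 4.17, adjusted p = 0.00114 in limma), a figure that understates the ratio because of the reads added before taking logs. Cfp was higher in TLS in 3 of 3 mice, by 2.94, 2.14 and 3.76 log2 units in mice H6, H20 and H115.

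The other components gave no called difference between TLS and kidney. C3, the protein on which all the pathways converge, measured 120, 90.3, 18.5 and 7.10 in the kidneys of mice H6, H20, H115 and H117, and 171, 120 and 88.3 in the TLS of mice H6, H20 and H115. The kidneys spread widely, those of mice H6 and H20 reached the TLS range and those of mice H115 and H117 lay far below it. The log2 difference of 1.76 (95% interval -0.07 to 3.58) did not pass (adjusted p = 0.187, limma). C4b, which encodes the C4 that C1s cuts, measured 47.7, 22.8, 4.64 and 3.55 in the kidneys and 29.7, 16.5 and 7.63 in the TLS. Its difference was 0.34 (95% interval -1.41 to 2.10, adjusted p = 0.833, limma). Cfb, which encodes factor B, the alternative-pathway counterpart of C2, measured 110, 59.9, 66.1 and 31.9 in the kidneys and 68.7, 36.2 and 37.1 in the TLS. Its fitted difference was -0.43 (95% interval -1.39 to 0.54, adjusted p = 0.582, limma), and in each of 3 mice the TLS value was the lower. C2, the protease that joins C4b in the classical convertase, ranged from 3.55 to 22.8 in kidney and from 5.45 to 15.3 in TLS, with a difference of -0.03 (95% interval -1.32 to 1.25).

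C3ar1, the receptor for the C3a fragment, was at the limit of detection. The kidney of mouse H20 held 5 reads, the highest of the 14 libraries, and each other library held 0 to 2. It had no read in the antibody-positive and young lymph nodes, where 0 reads still allow up to 3. Its mean value fell below the minimum of 5 set for testing, so it was not tested in any comparison, and no difference was detectable at this depth.

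Of the list, 4 of the 8 genes tested were called between TLS and kidney, all higher in TLS, against 14.7% of the 7382 genes tested (8.62% called higher and 6.07% called lower in TLS). The median log2 difference of the 8 was 1.74, against -0.01 over all genes tested. The group ranges did not overlap for 3 of them, against 25.4% of all genes. Without the 3 libraries rich in ribosomal RNA, Cfp alone was called (3.07, adjusted p = 0.0140), with C1qa at 1.97 (adjusted p = 0.105), C1qb at 1.51 (adjusted p = 0.152) and C1qc at 1.62 (adjusted p = 0.105), all from limma. Leaving out the TLS of mouse H6, or the kidney of mouse H115 or H117, also left Cfp as the only gene called, and edgeR called C1qc and Cfp alone, against 11.3% of all genes.

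**Figure D2:**
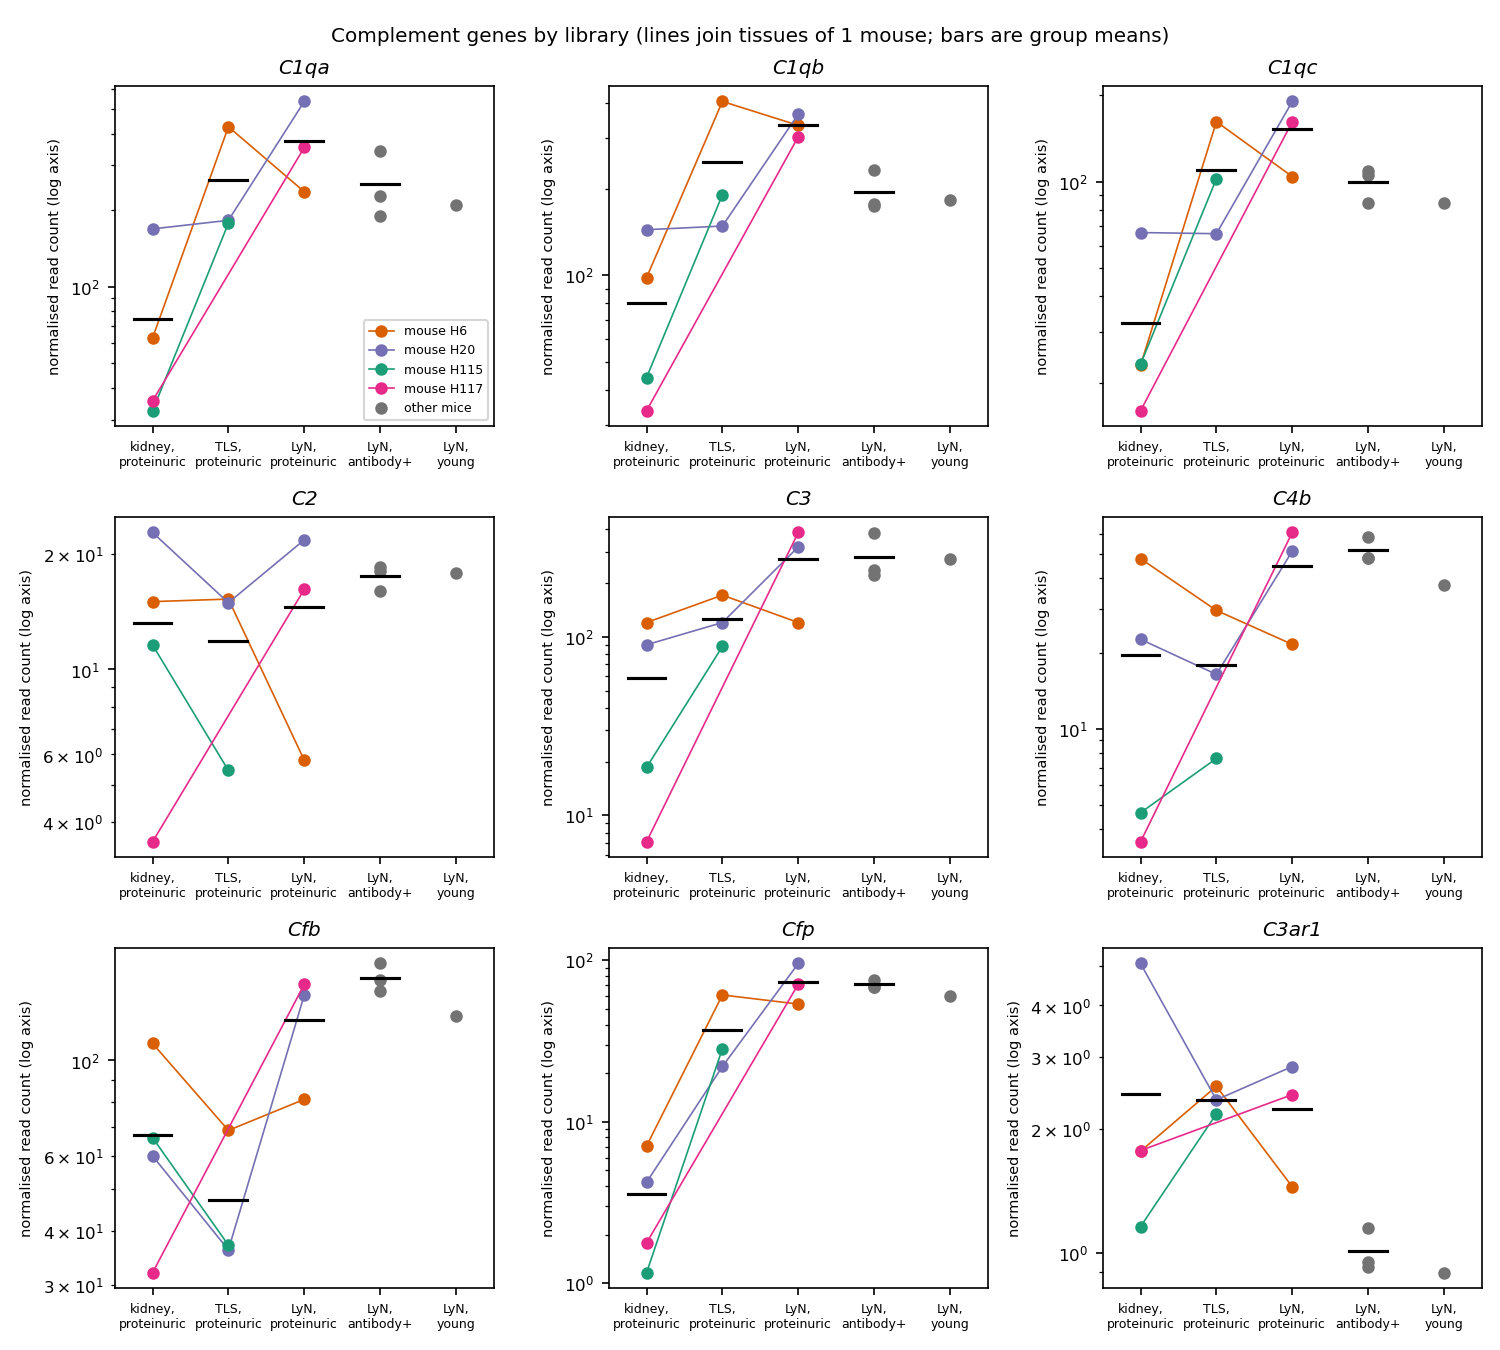
Normalised read counts (vertical, log axis, its range set per panel) of each of the 9 genes by group, with 1 point per library, coloured lines joining the tissues of 1 mouse, grey points for mice with 1 tissue and black bars for group means; LyN is lymph node and antibody+ is antibody-positive. The C1q panels rise from kidney to TLS in mice H6 and H115 and stay level in mouse H20, Cfp rises in each of the mice, and Cfb falls from kidney to TLS in mice H6, H20 and H115.

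Lymph nodes of proteinuric mice had more C1q, C3 and properdin mRNA than kidney. C1qa measured 236, 535 and 353 in the lymph nodes of mice H6, H20 and H117, above all 4 kidneys, and differed from kidney by 2.56 on the log2 scale (SE 0.58, adjusted p = 0.00306, limma). C1qb measured 333, 365 and 304 in these nodes, the tightest of the C1q ranges, and differed by 2.28 (SE 0.52, adjusted p = 0.00346, limma). C1qc measured 104, 190 and 162 and differed by 2.38 (SE 0.49, adjusted p = 0.00166, limma). Each C1q gene was higher in the lymph node than in the kidney of the same mouse in 3 of 3 mice.

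Cfp measured 53.6, 95.7 and 71.2 in the lymph nodes of mice H6, H20 and H117, and its difference from kidney was 4.19 (SE 0.48, adjusted p = 2.12e-05, limma). C3 measured 120, 319 and 384 in these nodes. The lowest node and the highest kidney, both of mouse H6, were at the same level to within 1 normalised read. The log2 difference for C3 was 2.76 (SE 0.83, 95% interval 0.94 to 4.58, adjusted p = 0.0187, limma). It lost the call without the kidney of mouse H115 (adjusted p = 0.0539), the node of mouse H20 (adjusted p = 0.0657) or the node of mouse H117 (adjusted p = 0.0791).

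C4b measured 21.7, 51.2 and 60.7 in the lymph nodes, which overlapped the kidney range, with a difference of 1.67 (adjusted p = 0.113, limma). Cfb measured 81.1, 142 and 151 there, with a difference of 0.96 (adjusted p = 0.0973, limma). Both were called when the kidney of mouse H6 was left out, C4b at 2.30 (adjusted p = 0.0186) and Cfb at 1.24 (adjusted p = 0.0394). C2 measured 5.80, 21.8 and 16.2 and differed by 0.19 (95% interval -1.09 to 1.47). Thus 5 of 8 genes were called, all higher in the lymph node, where 43.8% of the genes tested were called, 20.8% as higher and 23.0% as lower. The median log2 difference of the 8 was 2.33, against 0.05 over all genes tested. The same 5 genes had ranges that did not overlap, against 48.8% of all genes. Without the 3 libraries rich in ribosomal RNA the count was again 5 of 8.

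TLS and lymph node were not separated on any of the 8 genes, where 10.6% of the genes tested were called, 8.87% as higher in TLS and 1.69% as lower. At an unadjusted p under 0.05 the count in limma was 1 (Cfb), against 22.6% of all genes. Of the 8, edgeR called 0, against 10.6% of all genes, and DESeq2 called 1, against 11.2%. The median log2 difference of TLS minus lymph node was -0.78 over the 8 genes and -0.04 over all genes tested, and each of the 8 fitted values was negative. Cfb came nearest to the threshold: the TLS values of 68.7, 36.2 and 37.1 all lay below the lymph node values of 81.1, 142 and 151, with a difference of -1.39 (SE 0.47, adjusted p = 0.0882, limma). It was the only 1 of the 8 whose ranges did not overlap, against 26.8% of all genes. DESeq2 called Cfb (adjusted p = 0.0177). The intervals leave room for sizeable differences in either direction, from -1.90 to 0.78 for C1qa, from -1.77 to 0.65 for C1qb and from -2.95 to 0.95 for C3. In the mice with both tissues, the C1qa difference of TLS minus node was 0.85 in mouse H6 and -1.55 in mouse H20.

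**Figure D3:**
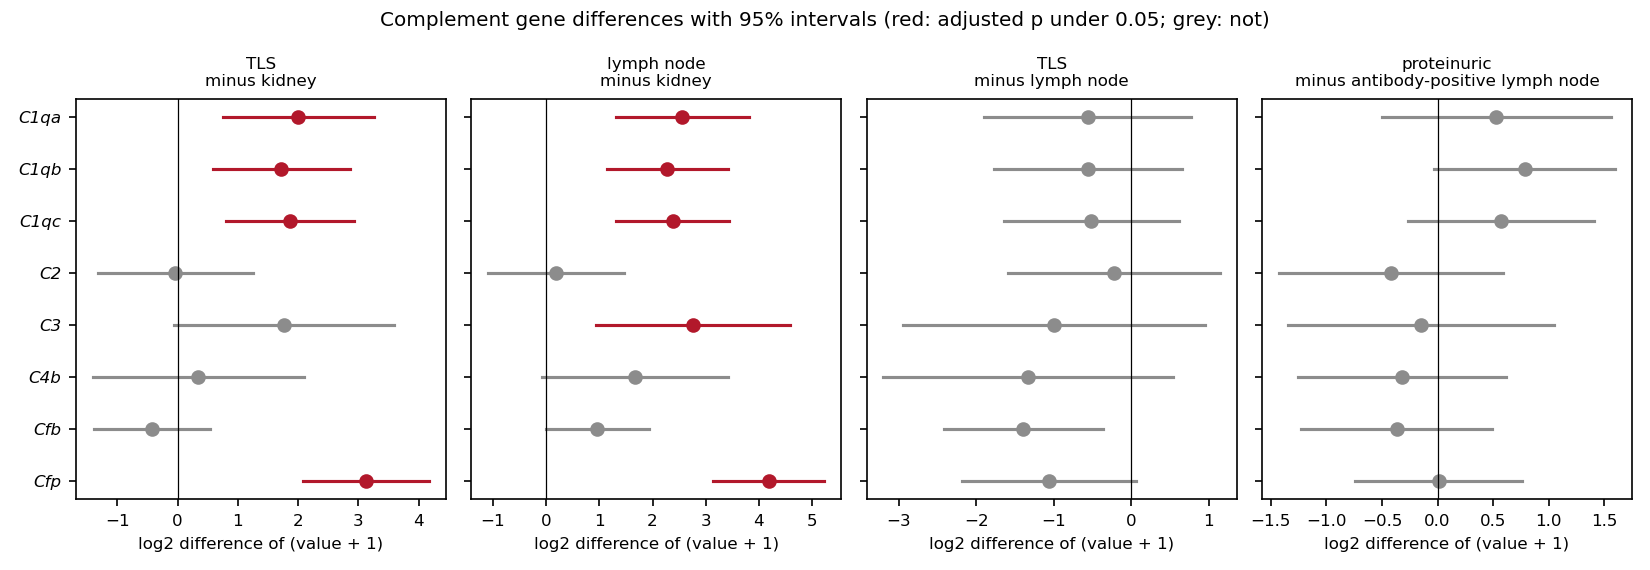
Log2 difference of (value + 1) (horizontal) for the 8 tested genes (vertical) in the 4 comparisons, with 95% intervals from limma; points in red have an adjusted p under 0.05. C1qa, C1qb, C1qc and Cfp are red in TLS minus kidney, C3 joins them in lymph node minus kidney, and no gene is red in the 2 remaining panels.

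The lymph nodes of proteinuric and antibody-positive mice were compared next, to see how complement mRNA stood at the 2 disease stages. No gene of the table was called (0 of 6810 tested, 0.0%, by limma), and edgeR also called 0 genes while DESeq2 called 13 over the table (0.191%), with no complement gene among them. At an unadjusted p under 0.05 limma gave 215 of the 6810 genes (3.16%) and 0 of the 8. C1qb came nearest, with 304 to 365 in the proteinuric nodes against 178, 232 and 174 in the nodes of antibody-positive mice D10, D11 and L25. These ranges did not overlap, as was true of 8.58% of all genes tested, and the difference was 0.78 (95% interval -0.03 to 1.60, unadjusted p = 0.0574, adjusted p = 0.998 in limma). C1qa differed by 0.53 (95% interval -0.50 to 1.56) and C1qc by 0.57 (95% interval -0.27 to 1.41). C3 averaged 275 ± 138 and 281 ± 88.8 (SD, n = 3 each), and Cfp 73.5 ± 21.1 and 71.2 ± 4.27, with differences of -0.15 (95% interval -1.35 to 1.05) and 0.01 (95% interval -0.75 to 0.76). Cfb averaged 125 ± 37.9 and 156 ± 11.6, C4b 44.5 ± 20.3 and 51.5 ± 5.68, and C2 14.6 ± 8.11 and 17.6 ± 1.32. For these genes the proteinuric node of mouse H6 was the lowest of the 3 proteinuric nodes, and it is one of the libraries rich in ribosomal RNA.

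The single lymph node of the young mouse had no replicate. It held 210 normalised reads of C1qa, 183 of C1qb, 84.1 of C1qc, 272 of C3, 127 of Cfb, 59.95 of Cfp, 37.6 of C4b and 17.9 of C2. C1qa and C1qb lay below the proteinuric range and within the antibody-positive one, and C1qc lay below both. Cfb, Cfp and C4b lay below the antibody-positive range and within the proteinuric one, and C2 and C3 lay within both.

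The kidney libraries varied widely among themselves. For C3, C4b, Cfp, C2, C1qa and C1qb the kidneys of mice H6 and H20 both lay above those of mice H115 and H117. For C3 the extremes were 120 in mouse H6 and 7.10 in mouse H117. Mouse H6 was highest for C3, C4b and Cfp, and mouse H20 for C2 and each C1q gene. For C1qc the kidneys of mice H6 and H115 were level, at 23.0 and 23.2. The 10 macrophage markers of the list (Adgre1, Cd68, Csf1r and others) summed to 456, 574, 210 and 114 normalised reads in the kidneys of mice H6, H20, H115 and H117, whereas the proximal tubule markers summed to 5522, 8143, 15880 and 15670. How far either sum accounts for the spread was not tested.

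The summed level of these macrophage markers, like C1q, was lower in kidney than in TLS and lymph node, but its members differed among themselves. None of the 10 was at 0 in every library of a group, and their sum was 114 to 574 in kidney, 871 to 1193 in TLS, 1972 to 2608 in proteinuric lymph node and 1527 to 1947 in antibody-positive lymph node. Lyz2 (means 144 in kidney, 515 in TLS and 1519 in proteinuric node) and Ctss (75.2, 301 and 569) made up most of the sum. Cd14 had the opposite order, with means of 55.1, 46.4 and 9.23, and Mrc1 averaged 1.496, 1.17 and 3.04. Of 9 macrophage markers tested, 3 were called higher in TLS than in kidney, against 8.62% of all genes, and 6 were called higher in lymph node than in kidney, against 20.8%, with 0 called between TLS and lymph node. B cell markers (5 of 5 tested) and T cell markers (5 of 5 tested) were also called higher in TLS than in kidney, and 3 of 6 interferon response genes were. Their part in the complement differences was not tested. In bulk tissue, fewer cells of a type and less RNA per cell cannot be told apart.

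The proportions of the C1q chains were compared because the protein takes up its A, B and C chains in equal numbers. Per length, C1qa made up 37.1% to 55.0% of the summed C1q reads over the 14 libraries, C1qb 35.3% to 55.7% and C1qc 7.14% to 14.1%. The kidney and the lymph node of mouse H6 were the libraries with the highest C1qb share, at 55.7% and 52.2%, and C1qb exceeded C1qa in 4 of the 14 libraries, those 2 and the kidney and TLS of mouse H115. The log2 ratio of C1qa to C1qb was taken on the normalised values, without scaling for length. It averaged 0.09 ± 0.20 in TLS, -0.20 ± 0.41 in kidney and 0.09 ± 0.54 in proteinuric lymph node (SD, n = 3, 4 and 3). No ratio differed between tissues in a two-sided exact permutation test (9 tests, smallest p = 0.343, all adjusted p = 1.0), but 3 against 3 cannot go below p = 0.1 and 3 against 4 not below 0.0571. The size of the C1qc share depends on the exon length taken, since C1qc has 2 annotated transcripts. With the longest transcript in place of all exons, C1qc rose from 56.6 to 90.8 per kilobase in TLS. It stayed below C1qa (251) and C1qb (227) there.

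**Figure D4:**
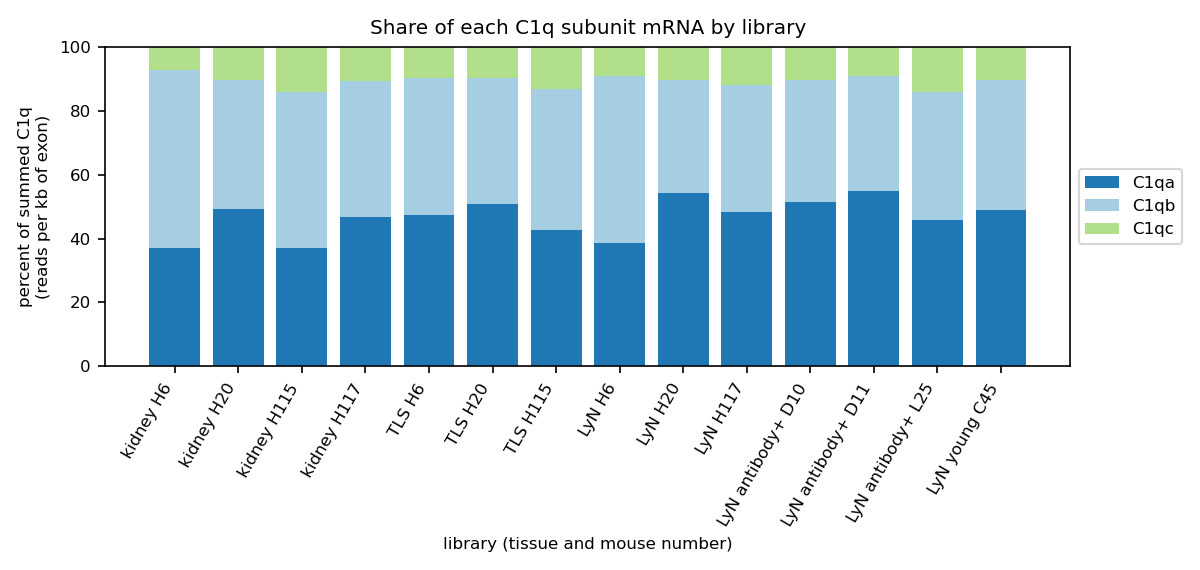
Percent of the summed C1q reads per kilobase of exon (vertical) taken by C1qa, C1qb and C1qc in each library (horizontal, tissue and mouse number; LyN is lymph node, antibody+ is antibody-positive). C1qc takes 7.14% to 14.1% in each bar, and the kidney and lymph node of mouse H6 show the largest C1qb share.

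Across the 14 libraries the 3 C1q genes were also the most alike. Likeness was measured as the root mean square difference of log2(value + 1) after centring each gene on its own mean, so that a smaller figure means a closer pattern. It was 0.32 between C1qa and C1qc, 0.34 between C1qb and C1qc and 0.35 between C1qa and C1qb, and 0.65 or more for every other pair of members. C2 and Cfb (0.65), C3 and C4b (0.66) and C4b and Cfb (0.67) came next. The measure grows with how much a gene itself varies. The root mean square of a gene about its own mean was 0.71 for C2, 0.81 for Cfb, 1.22 for C4b and 1.54 for C3. The 0.65 of C2 and Cfb was thus close to the variation of C2 alone, and figures of genes that vary differently are not directly comparable. Outside the list, among 7391 genes whose mean value reached 5, the genes close to the C1q mean included Neurl3 (0.35) and Fcer1g (0.39), the common signalling chain of several Fc receptors. Closest to Cfp were Rac2 (0.34), Arhgdib (0.35) and Psmb9 (0.35). C3 had no gene nearer than 0.52 (Pld4, Nckap1l and Vim), and C4b was nearest to Cd68 (0.38), Des (0.39) and Vim (0.41). Cfb was nearest to Cmklr1 (0.35), Acsf2 (0.35) and Gja4 (0.40), and C2, at few reads, to Dusp11 (0.30), Ddit3 (0.31) and Slc43a3 (0.31).

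The rest of the complement system was followed in a list of 49 genes, of which 30 were in the table and 15 had enough reads for the tissue comparisons. Between TLS and kidney, 2 of 15 were called, a share close to the 14.7% of all genes called, both higher in TLS and both integrin chains of complement receptors. Itgax, the alpha chain of complement receptor 4, averaged 17.8 ± 10.3 in TLS and 2.46 ± 1.18 in kidney (SD, n = 3 and 4), a difference of 2.38 (adjusted p = 0.00666, limma). Itgb2, the beta chain shared by complement receptors 3 and 4, averaged 58.1 ± 35.7 and 11.4 ± 6.78, a difference of 2.30 (adjusted p = 0.0100, limma), which missed the threshold without the TLS of mouse H6 (adjusted p = 0.0649). None of the 15 was called lower. Itgam, the alpha chain of complement receptor 3, was not called (difference 0.71, adjusted p = 0.336, limma). The classical proteases C1ra and C1s1, the terminal component C8a and the regulators Cfi, Serping1 and Clu did not pass. The median log2 difference of the 15 was 0.71.

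Between lymph node and kidney, 10 of 15 were called, 6 higher and 4 lower in the node, with a median of 1.27. Over all genes 43.8% were called, 20.8% as higher and 23.0% as lower, so the share called lower was near that of all genes. The higher ones with the widest differences were Cfd, Itgb2 (3.47), Itgax (3.27), Cd55 (2.64) and C1s1 (2.34, adjusted p = 0.0408), all in limma. Cfd, which encodes the factor D that cuts factor B, had no read in any of 4 kidneys and 24 to 363 in the 3 nodes, which is at least 28.4-fold higher in the node with every kidney set at the floor of 3 reads per library. That bound rests on the node of mouse H20, and without it was 10.3-fold. The call of Cfd was lost without that node (adjusted p = 0.0660, limma) or the kidney of mouse H115 (adjusted p = 0.0533). Cfd is also a marker of adipocytes, and the sum of 4 adipocyte markers, Cfd among them, was 165 to 1964 in these nodes and 32.0 to 77.7 in kidney. Its part in the difference was not tested. C1s1, the protease that cuts C4, was not called by edgeR (adjusted p = 0.135) or DESeq2 (adjusted p = 0.112). Its call was also lost without the libraries rich in ribosomal RNA and without any 1 of 5 of the 7 kidney and node libraries. The sixth was Itgam (1.65), the alpha chain of complement receptor 3, not called without the node of mouse H117 (adjusted p = 0.0590, limma).

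Of the 4 called lower in the lymph node, 3 are described, named after their values were seen, and are regulators. Regulators did not all go this way. Cd55, a membrane regulator, was called higher in the node (2.64), and Serping1 (1.27), Clu (0.61) and Cr1l (0.49) had positive differences that were not called. Cd59a, a membrane inhibitor of the terminal complex, averaged 3.31 ± 0.4498 in node and 20.0 ± 6.15 in kidney, a difference of -2.25 (adjusted p = 0.000273, limma). Each proteinuric node held only 1 to 3 reads of it, near the limit of what was measurable. In the antibody-positive nodes Cd59a ranged from 3.71 to 31.0, against 13.3 to 27.8 in kidney, so a low level was not shared by all lymph nodes. Cfi, a soluble protease that inactivates C3b, differed by -2.21 (adjusted p = 0.0317), and Thbd, thrombomodulin, by -1.23 (adjusted p = 0.0376, all limma). Cfi had 0 reads in the 3 nodes and 0 to 31 in the kidneys. That is at least 2.70-fold lower in the node with every node set at that floor, and 1.495-fold without the kidney of mouse H6. Cfi reached the minimum mean value set for testing only through kidney (mean 12.9, against 4.40 in TLS and 1.07 in node). Without the kidney of mouse H6 it fell below that minimum and was not tested, so its call could not be checked there. The calls of Cfi and Thbd were each lost without the lymph node of mouse H6, H20 or H117, or the kidney of mouse H20, taken singly. That of Thbd was also lost without the kidney of mouse H6 (-0.88, adjusted p = 0.104), without the libraries rich in ribosomal RNA (adjusted p = 0.0695, both limma) and by DESeq2 (adjusted p = 0.0503).

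Between TLS and lymph node, 2 of 15 were called, 1 in each direction, a share close to the 10.6% of all genes called. Both are membrane regulators, of which 4 were tested. Cd55, which speeds decay of the C3 convertase, was lower in TLS (4.08 ± 0.736 against 14.7 ± 2.24, SD, n = 3 each; difference -1.63, adjusted p = 0.0149, limma). With the mouse as a replicate block it was not called (-1.56, adjusted p = 0.0595, limma). Cd59a was higher in TLS (14.3 ± 7.13 against 3.31 ± 0.4498, difference 1.72, adjusted p = 0.0119, limma), and the proximal tubule marker sum was also higher there, as given above. The node values of Cd59a rest on 1 to 3 reads per library, near the limit of what was measurable. Both calls were lost without the 3 libraries rich in ribosomal RNA (adjusted p = 0.131 and 0.133) and without the TLS of mouse H115 (adjusted p = 0.0503 and 0.0565, limma). That of Cd55 was also lost without the node of mouse H6, H20 or H117, taken singly.

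Between the 2 adult lymph node groups, 0 of 14 listed genes tested were called, against 0.0% of all genes. At an unadjusted p under 0.05 the count in limma was 3, against 3.16% of all genes. These were Itgam (difference 1.62, adjusted p = 0.638), Itgax (1.61, adjusted p = 0.998) and Vtn, vitronectin (-1.13, adjusted p = 0.998). Itgam measured 10.1 to 25.1 in the proteinuric nodes and 3.81 to 5.74 in the antibody-positive nodes, and Itgax 13.04 to 55.0 against 6.49 to 12.4, without overlap in either case. Ranges did not overlap for 3 of the 14, against 8.58% of all genes. The remaining one was C1ra, lower in the proteinuric nodes (means 29.3 against 42.6). Neutrophils also express Itgam, and the sum of the 3 neutrophil markers in the table (S100a8, S100a9 and Csf3r) was 15.4 to 223 in the proteinuric nodes and 1.85 to 12.6 in the antibody-positive nodes, where S100a9 had no read. Its part in the difference was not tested.

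**Figure D5:**
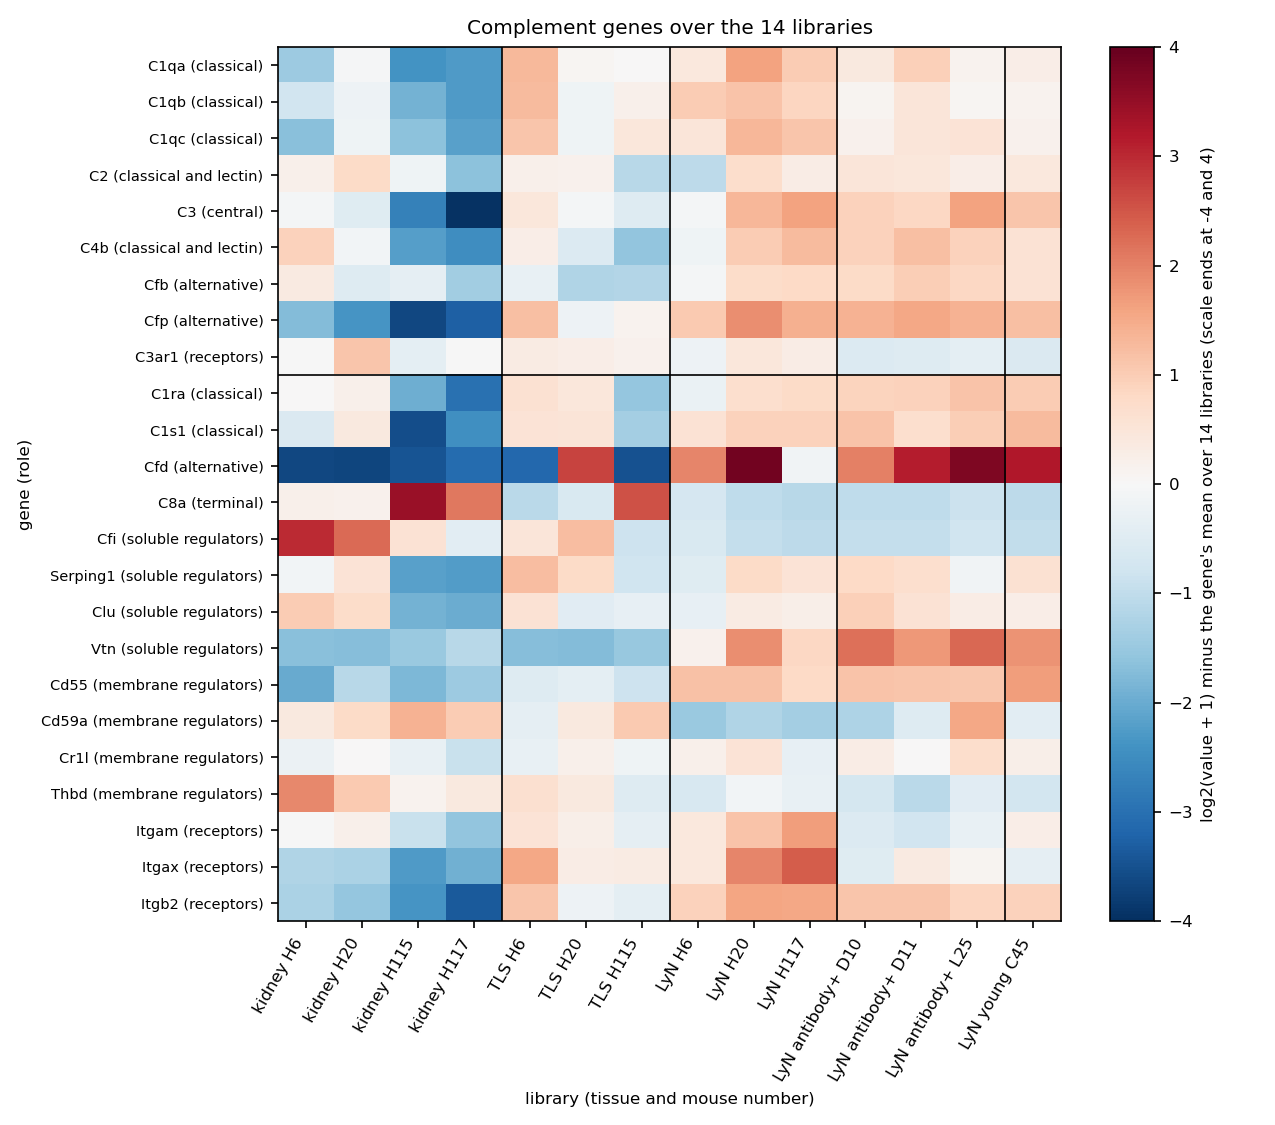
Log2(value + 1) of each gene minus its mean over the 14 libraries (colour, red above and blue below the mean) for the 9 genes of the report (top block) and 15 of the 16 listed complement genes whose mean value reached 5 (bottom block), by library (LyN is lymph node, antibody+ is antibody-positive). The kidney columns are blue for Cfp, Itgax and Itgb2, and for C1q except that of mouse H20, which is near the mean; Cfi is red in kidneys H6, H20 and H115, and kidneys H115 and H117 are bluer than kidneys H6 and H20 for C3 and C4b.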

How the data were processed

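RNA of kidney, TLS and lymph nodes was sequenced on an Ion Torrent PGM after poly(A) selection, and the authors mapped reads in CLC Genomics Workbench 8 to GRCm38. The deposited table gives, as a normalised signal, (reads + 1) divided by a DESeq size factor for 14 libraries. Multiplying by the size factor and subtracting 1 gave whole reads for 100.0% of values (tolerance 1e-06); libraries held 343825 to 443379 reads, 406 genes none, which limits low genes to counting error. Strand handling and multi-mapping rules are not given in the sources used here. The size factor of each library was inferred as 1 divided by its lowest value. Size factors recomputed from the reads plus 1, by the DESeq median of ratios, equalled the inferred ones.

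Values were tested as log2(value + 1) by limma 3.58.1 (trend and robust empirical Bayes, R 4.3.3) over genes whose mean value reached 5, with Benjamini-Hochberg adjustment over all genes tested and calls at an adjusted p under 0.05, two-sided. The 3 tissue comparisons shared a fit of 10 libraries (7382 genes) and the 2 adult lymph node groups had their own (6810 genes). Reads were tested with edgeR 4.0.16 (quasi-likelihood) and DESeq2 1.42.0 as alternatives, beside other pseudocounts, filters, a log2 change of at least 1, single libraries left out and the mouse as a replicate block. The scripts were tested on simulated data. Length-scaled levels are reads per size factor and kilobase of GENCODE M21 exons, C1q chain ratios were compared by exact permutation tests, and promoter letters are from RefSeq.

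Tissues of a mouse share its number, so the numbers pair libraries. The deviations of same-numbered libraries from their group means correlated at 0.35, 0.36 and 0.45 for kidney and TLS (mice H6, H20 and H115), at -0.33, 0.20 and -0.34 for kidney and lymph node (mice H6, H20 and H117) and at -0.27 and 0.03 for TLS and lymph node (mice H6 and H20). Libraries of different mice gave -0.50 to 0.36 for kidney and TLS. They gave -0.35 to 0.51 for kidney and lymph node and -0.21 to 0.29 for TLS and lymph node.

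All 9 genes are described whatever their values. Of the other listed complement genes, those called with the 5 widest differences per comparison are named, and for likeness the 3 nearest genes. Some genes that these rules select are not reported here. The members and lists were chosen with earlier results of these data known. Libraries of a group come from separate mice.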

Additional observations from a re-analysis of the deposited data

Results flagged for a closer look

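Among the 9 genes, kidney was the only group of more than 3 libraries, so outliers were looked for in 9 sets of 4 values, of which chance marks about 1 in 20. In 2 of them the highest library, the kidney of mouse H20, stood apart by Dixon's ratio of gap to range. For C1qc the ratio was 0.858, with 66.6 normalised reads in mouse H20 against 16.0 to 23.2 in the other 3 kidneys. For C3ar1 it was 0.842 on the normalised values, 5.06 in mouse H20 against 1.16 to 1.78 in the other kidneys. These values rest on 5 reads against 0, 0 and 1, near the limit of detection, where the rate of 1 in 20 need not hold. The macrophage marker sum was also highest in that kidney, at 574 against 114 to 456, and its part was not tested.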

How the results depend on the processing

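Each comparison was repeated under the alternatives named above, and the restriction to libraries with under 20% of reads on ribosomal RNA genes was chosen after seeing the data. Of the 9 genes, 4 were called between TLS and kidney, but 2 by edgeR with TMM or DESeq2 size factors, 2 in a fit of only the 2 tissues, 1 without the libraries rich in ribosomal RNA, and 1 to 4 when single libraries were left out. Of the other complement genes there, 2 were called, but 1 at a mean value of at least 20 and 1 to 2 with single libraries left out. Between TLS and lymph node, 0 of the 9 were called and 1 (Cfb) by DESeq2. Of the others, 2 were called, but 0 at a mean value of at least 20 or without the libraries rich in ribosomal RNA, 4 in a fit of only these tissues, and 1 to 3 with single libraries left out. Between lymph node and kidney, 5 were called (4 to 7 with single libraries left out), and 10 of the others, but 3 at a mean value of at least 20 and 5 to 11 with single libraries left out. The causes were not tested.

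With the mouse as a replicate block, the counts of the 9 were 3, 0 and 5 in these comparisons, and it changed no call of theirs but that of C1qb. No paired analysis was possible for the 2 lymph node stages because they share no mouse. Cfp was called higher than in kidney under every alternative in both TLS and lymph node, and C1qa, C1qb and C1qc in lymph node.

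The sign turned only for values that were not called. C4b in TLS minus kidney was -0.0235 and -0.0997 by edgeR (TMM and DESeq2 size factors) and -0.0512 by DESeq2, and -0.16 to 0.98 with single libraries left out. C2 gave -0.51 to 0.41, -0.74 to 0.22 and -0.28 to 0.70 in the 3 tissue comparisons with single libraries left out. Between lymph node stages C3 was 0.0195 by edgeR with TMM, and single libraries moved C3 from -0.47 to 0.36, C4b from -0.60 to 0.12, C2 from -0.78 to 0.10 and Cfp from -0.20 to 0.21. The C1qa over C1qb ratio in TLS minus lymph node was -0.0001, and 0.0005 from the recovered reads.

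With TMM the calls over all genes between TLS and kidney were 662 higher and 170 lower against 636 and 448, the median gene moving from -0.01 to 0.12, and between TLS and lymph node 746 and 38 against 655 and 125, the median moving from -0.04 to 0.14. Between lymph node stages DESeq2 called 13 genes and a fit of all 14 libraries 7, against 0. Depth limits C3ar1 and C2, and groups of 3 and 4 mice limit the width of each interval.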
